A study of Thermothelomyces thermophilus ATCC 42464 with 8 samples.

Results

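DF1501 is a strain of the thermophilic fungus Myceliophthora thermophila that lacks the d-xylose reductase gene Mtxyl1 and carries added copies of Mtxyd1, xylD, BxxylX and KsaD, a set of genes for the Weimberg pathway. It was compared with DF1102, which has the same deletion and none of the added genes, so the comparison asks which transcripts differ once the pathway is present. The comparison used 4 of the 8 libraries in the series, 2 of DF1501 and 2 of DF1102, and covered all genes. DF1406, the strain with the same deletion and a set made of Mtxyd1, xylD, xylX and xylA, and JG207, the starting strain with Mtxyl1 intact, have 2 libraries each and are given beside them. Every strain descends from JG207, which was engineered to overexpress a malate transporter and a pyruvate carboxylase, so the DF1102 libraries carry that background too. The added genes stand behind the constitutive promoters Ptef (Mtxyd1 and KsaD), Pgpda (xylD) and Peif (BxxylX), went in at random sites, and neither the site nor the number of copies in DF1501 is used here. Mycelium was grown for 24 h in 2% glucose and moved to 1% d-xylose for 4 h at 45 °C and 150 rpm. The sources do not say whether a strain's 2 libraries are from separate cultures, so p-values measure only how far these libraries spread, which may be technical variation. In mycelium sampled in bulk, a change in the mix of hyphal cells and a change in RNA per cell cannot be told apart.

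Most fungi reduce d-xylose to xylitol with a d-xylose reductase, oxidize xylitol to d-xylulose and phosphorylate that sugar, which then enters the pentose phosphate pathway. The Weimberg pathway of bacteria bypasses these steps. A d-xylose dehydrogenase makes d-xylonate by way of its lactone, d-xylonate dehydratase (xylD) makes 2-keto-3-deoxy-d-xylonate, a further dehydratase (xylX or BxxylX) makes α-ketoglutarate semialdehyde, and a dehydrogenase (xylA or KsaD) oxidizes this to α-ketoglutarate of the TCA cycle. BxxylX comes from Burkholderia xenovorans and KsaD from Corynebacterium glutamicum, and xylD, xylX and xylA from Caulobacter crescentus. Only genes of M. thermophila have rows in the table used, so transcripts of the bacterial genes were not analysed here.

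Reads counted in genes summed to between 20727346 and 21408353 per library. Levels of single genes are given as RPKM, counted reads scaled to gene length and library total. Differences between strains are log2 fold changes from edgeR's quasi-likelihood test, and a gene is called higher or lower when it differed 1.5-fold or more with a Benjamini-Hochberg adjusted p no greater than 0.05. Of 8335 genes tested, 1090 were higher (13.1% of those tested) and 687 were lower (8.24%) in DF1501 than in DF1102. These shares are the background for the counts of list members given below. The median fold was 1.88 among the higher and 1.78 among the lower genes. A fold of at least 4 was reached by 74 higher and 36 lower genes. The deposited descriptions come from the closest Saccharomyces cerevisiae gene and are given below as matches.

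The 2 DF1501 libraries differed from each other. Among genes with a mean of at least 10 CPM (counts scaled to an equal library total) in the strain, 126 of 6457 differed by at least 2-fold between the libraries (1.95%), against 0.140% in DF1406, 0.0471% in DF1102 and 0.580% in JG207. On the first principal component of log2 CPM, which held 69.2% of the variance, DF1501 replicate 1 lay at 4.76 and replicate 2 at -15.7. The libraries of DF1406 lay at 16.6 and 17.1, those of DF1102 at 38.4 and 39.8, and those of JG207 at -50.1 and -50.9. On this component both DF1501 libraries lay between DF1102 and JG207, with replicate 2 nearer JG207. On the second, with 12.9% of the variance, DF1501 lay at -17.4 and -9.83 and DF1406 at -14.1 and -14.2. Both strains were there outside the range of DF1102 (17.3 and 18.6) and JG207 (5.54 and 14.1). Set against the DF1102 mean one at a time, replicate 1 had 302 genes at least 2-fold above it and 113 at least 2-fold below, and replicate 2 had 427 and 265, of 6586 genes. All 1090 higher and all 687 lower genes moved the same way in both libraries, and none overlapped with DF1102. The genes were called on these same libraries, so this agreement, and non-overlap given for called genes below, is no separate support. Replicate 2 was the further from DF1102 for 71.2% of the higher and 76.6% of the lower genes. It was the higher library for 50.3% of all genes tested. In fits without replicate 1, 1191 genes were higher and 935 lower, and without replicate 2, 886 and 501. Of the called genes, 682 higher (62.6%) and 387 lower (56.3%) were called in both of these fits as well.

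**Figure D1:**
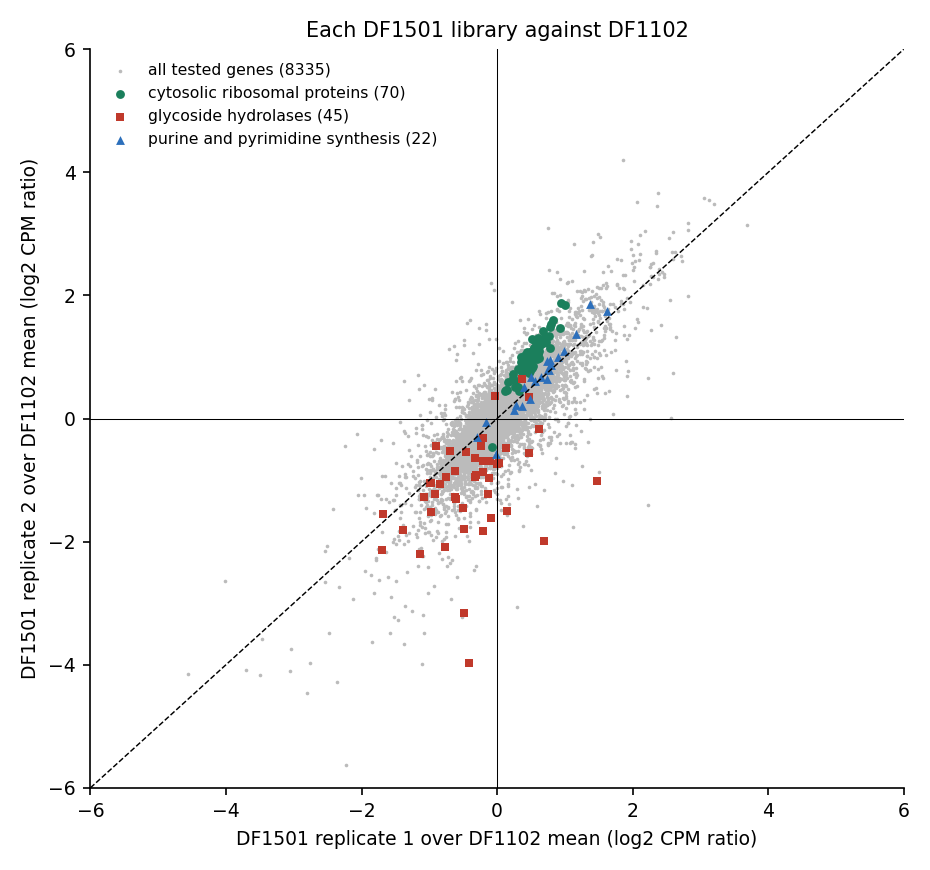
Log2 ratio of CPM over the DF1102 mean in DF1501 replicate 1 (horizontal axis) and replicate 2 (vertical axis), 1 point for each of 8335 tested genes, with 3 gene lists in colour and the line of equal ratios dashed. Both axes use the same DF1102 mean, so a slope is built in, and 69 of the 70 ribosomal protein genes lie above the dashed line and 40 of the 45 glycoside hydrolase genes below it.

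Of the genes of d-xylose use, Mtxyd1 was higher and Mtxyl1 and the xylulokinase gene were lower in DF1501 than in DF1102. Mtxyl1 (Mycth_43671), the deleted gene, had 252 and 228 RPKM in DF1501, 102 and 109 in DF1406, 412 and 383 in DF1102, and 1676 and 1773 in JG207. It was below JG207 in all 6 libraries of the deletion strains, and its counts were not 0 in any of them. Which part of the gene the remaining reads come from was not analysed here. The log2 fold change of Mtxyl1 against DF1102 was -0.73 (standard error 0.14, adjusted p = 0.00512), and the libraries of the strains did not overlap.

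Mtxyd1 (Mycth_112471) encodes the native d-xylose dehydrogenase and is also part of the construct, so native and added copies share a single count. It had 1947 and 1982 RPKM in DF1501, 4071 and 3640 in DF1406, 1137 and 1194 in DF1102, and 244 and 216 in JG207. The order of these levels, DF1406 over DF1501 over DF1102 over JG207, held without overlap of any libraries. Against DF1102 the log2 fold change was 0.75 (standard error 0.19, adjusted p = 0.0175), with an adjusted p of 0.0549 when only the 4 libraries compared were fitted and of 0.110 and 0.0757 without DF1102 replicate 1 and 2. Its level in DF1102, which carries no added copy, was above JG207 in both libraries.

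The xylitol dehydrogenase gene xdh1 (Mycth_2293953) had 953 and 734 RPKM in DF1501, against 1168 and 1289 in DF1102, and was not called (log2 fold change -0.54, standard error 0.19, adjusted p = 0.0570). The xylulokinase gene xkia (Mycth_67060) had 185 and 135 RPKM in DF1501 and 254 and 261 in DF1102 (log2 fold change -0.68, standard error 0.18, adjusted p = 0.0170). Its adjusted p was 0.0683 and 0.0897 without DF1102 replicate 1 and 2, and 0.0573 without DF1501 replicate 2. Mycth_113236, listed as a d-xylose reductase by annotation and matching a glycerol dehydrogenase, had 142 and 148 RPKM in DF1501 and 112 and 118 in DF1102. Its log2 fold change of 0.33 (standard error 0.10, adjusted p = 0.0350) stayed below the fold minimum. Actin (Mycth_2314852), the structural protein, had 440 and 524 RPKM in DF1501, against 433 and 468 in DF1102. These overlap, and actin was not called (adjusted p = 0.673).

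**Figure D2:**
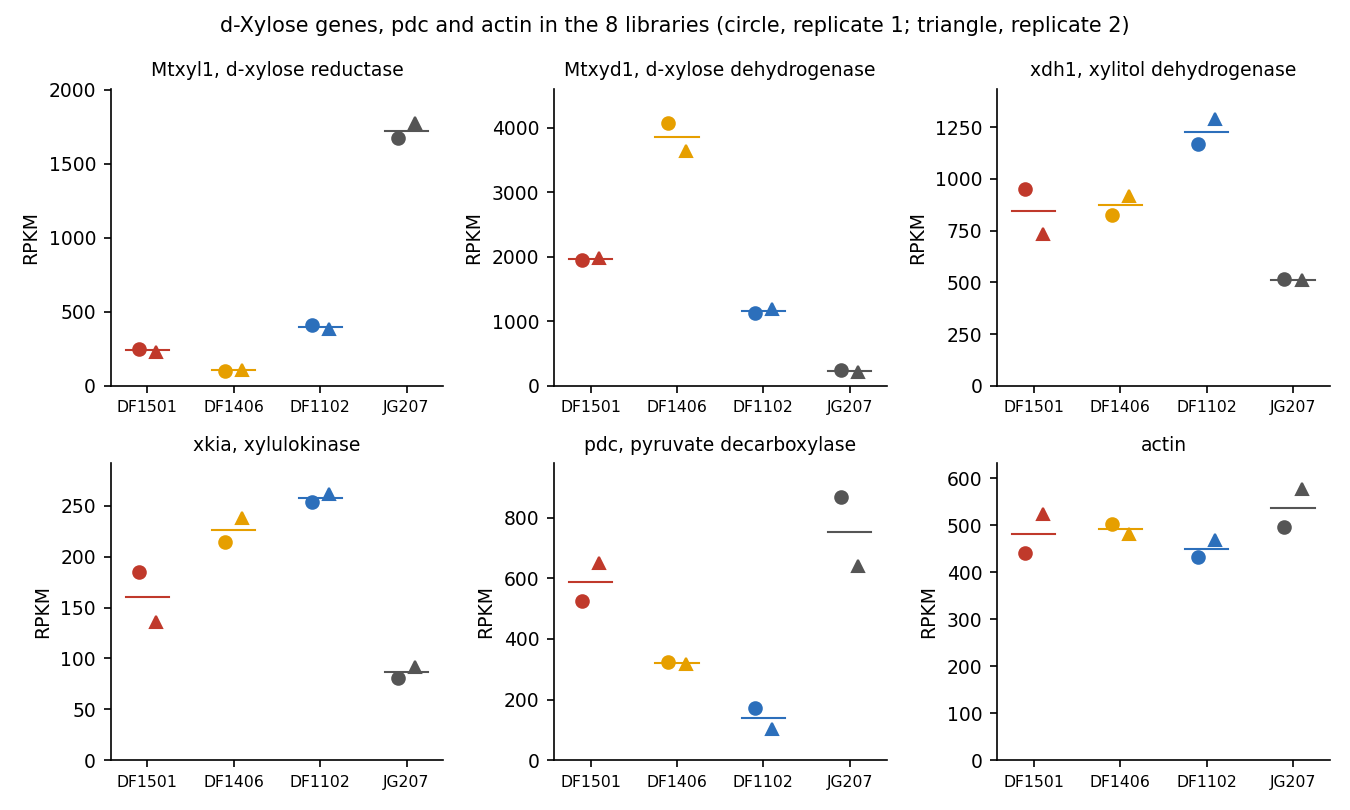
RPKM of the d-xylose genes, pdc and actin in each library, with a circle for replicate 1, a triangle for replicate 2 and a bar for the strain mean. Mtxyl1 stays above 0 in every deletion strain, Mtxyd1 in DF1501 lies between DF1406 and DF1102, and the actin libraries of DF1501 and DF1102 overlap.

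Several native genes share a promoter or terminator with the construct, and whether construct reads are counted in them was not tested. The gene of translation elongation factor EF-1 alpha (Mycth_2298136, terminator Teif) had 2506 and 3160 RPKM in DF1501 and 1732 and 1857 in DF1102. Its log2 fold change was 0.65 (standard error 0.20, adjusted p = 0.0334), with an adjusted p of 0.103 in the fit of the 4 libraries and of 0.168 and 0.105 without DF1102 replicate 1 and 2. The GH7 gene Mycth_109566 (terminator Tcbh) had 123 and 75.8 RPKM in DF1501, against 87.6 and 78.0 in DF1102. These overlap, and it was not called (adjusted p = 0.457). The glyceraldehyde 3-phosphate dehydrogenase gene gapdh (Mycth_2311855, terminator TgpdA) is given with glycolysis. The gene of phosphoenolpyruvate carboxykinase (Mycth_2315623), the enzyme that opens gluconeogenesis, is named because its locus was the insertion site in other strains of the study. No part of it is described in the DF1501 construct. This gene had 549 and 271 RPKM in DF1501 and 294 and 254 in DF1102. Its DF1501 libraries were more than 2-fold apart, and it was not called (log2 fold change 0.60, standard error 0.38, adjusted p = 0.253).

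Genes of glycolysis, of the non-oxidative pentose phosphate pathway and of part of the TCA cycle were higher in DF1501. Of 19 genes listed for glycolysis and gluconeogenesis, 8 were higher and 0 were lower, with a median log2 fold change of 0.50, against -0.002 over all tested genes. Enolase (eno, Mycth_2295989), which makes phosphoenolpyruvate, had 785 and 1112 RPKM in DF1501, 625 and 602 in DF1406, 237 and 237 in DF1102, and 1331 and 1279 in JG207 (log2 fold change against DF1102 1.99, standard error 0.19, adjusted p = 2.93e-04). Phosphoglycerate kinase (pgk, Mycth_2316240), which makes ATP, had 1228 and 1531 RPKM in DF1501, 667 and 656 in DF1406, 423 and 281 in DF1102, and 2243 and 1942 in JG207 (1.97, standard error 0.23, adjusted p = 7.13e-04). In both genes the DF1501 libraries lay between those of DF1102 and those of JG207 and overlapped neither.

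Other glycolytic genes rose as well. The gapdh gene had 3460 and 3839 RPKM in DF1501 and 1296 and 1342 in DF1102 (log2 fold change 1.46, standard error 0.22, adjusted p = 0.00186). Fructose-bisphosphate aldolase (ald, Mycth_2300033), which splits the hexose bisphosphate, had 333 and 379 RPKM in DF1501 and 118 and 111 in DF1102 (1.63, standard error 0.13, adjusted p = 1.32e-04). Triosephosphate isomerase (tpi, Mycth_2304931), which interconverts the triose phosphates, had 203 and 289 RPKM in DF1501 and 76.8 and 86.9 in DF1102 (1.58, standard error 0.17, adjusted p = 5.96e-04). The second copies listed for aldolase (Mycth_2298452) and triosephosphate isomerase (Mycth_39694) were not called, at log2 fold changes of -0.13 and -0.25. Nor were glucose phosphate isomerase pgi (Mycth_2298386) and phosphofructokinase pfk1 (Mycth_2297503), which act before the triose step, at 0.50 and 0.35. Among the 3 listed hexokinase genes, Mycth_2297364, which matches a glucokinase, rose, with 334 and 320 RPKM in DF1501 and 136 and 96.2 in DF1102, and the others were not called.

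Of the pentose phosphate pathway, 4 of 7 listed genes were higher and 0 lower, and the 4 were those of the non-oxidative arm, which joins pentose phosphates to glycolysis. Transaldolase (tal, Mycth_2297820) had 1351 and 1432 RPKM in DF1501 and 654 and 692 in DF1102 (log2 fold change 1.04, standard error 0.16, adjusted p = 0.00208). Ribose 5-phosphate isomerase (rpi, Mycth_2299676) had 61.1 and 69.2 RPKM in DF1501 and 33.6 and 29.3 in DF1102 (1.05, standard error 0.12, adjusted p = 7.63e-04). Ribulose-phosphate epimerase (rpe, Mycth_2296974) was at 0.82 and transketolase (tkl, Mycth_2300643) at 0.66, and transketolase lost its call in the fit of the 4 libraries (adjusted p = 0.0523). The 3 oxidative genes, which supply NADPH, were between -0.14 and 0.24 and none was called.

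Of 20 genes listed for the TCA cycle and pyruvate dehydrogenase, 6 were higher and 0 lower, and 3 were higher without DF1102 replicate 1. They encode a subunit of pyruvate dehydrogenase, citrate synthase, an aconitase, both listed isocitrate dehydrogenase subunits and malate dehydrogenase. The aconitase gene (aco, Mycth_2302623), for the enzyme that isomerizes citrate, had 29.9 and 42.3 RPKM in DF1501 and 15.7 and 15.6 in DF1102 (log2 fold change 1.20, standard error 0.18, adjusted p = 0.00185). Citrate synthase (cs, Mycth_2312570) was at 0.70 and the isocitrate dehydrogenase genes Mycth_2295514 and Mycth_2132657 were at 0.78 and 0.69. Mitochondrial malate dehydrogenase (mdh, Mycth_2305575) had 1608 and 1638 RPKM in DF1501 and 840 and 1017 in DF1102 (0.80, standard error 0.18, adjusted p = 0.00882, and 0.0795 without DF1102 replicate 1). The 2-oxoglutarate dehydrogenase gene ogdh (Mycth_2312383), for the enzyme that consumes α-ketoglutarate, had 260 and 216 RPKM in DF1501 and 225 and 222 in DF1102. These overlap, and the gene was not called (log2 fold change 0.09, standard error 0.17, adjusted p = 0.690). All 4 listed genes of succinate dehydrogenase, between -0.05 and 0.39, were not called either.

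**Figure D3:**
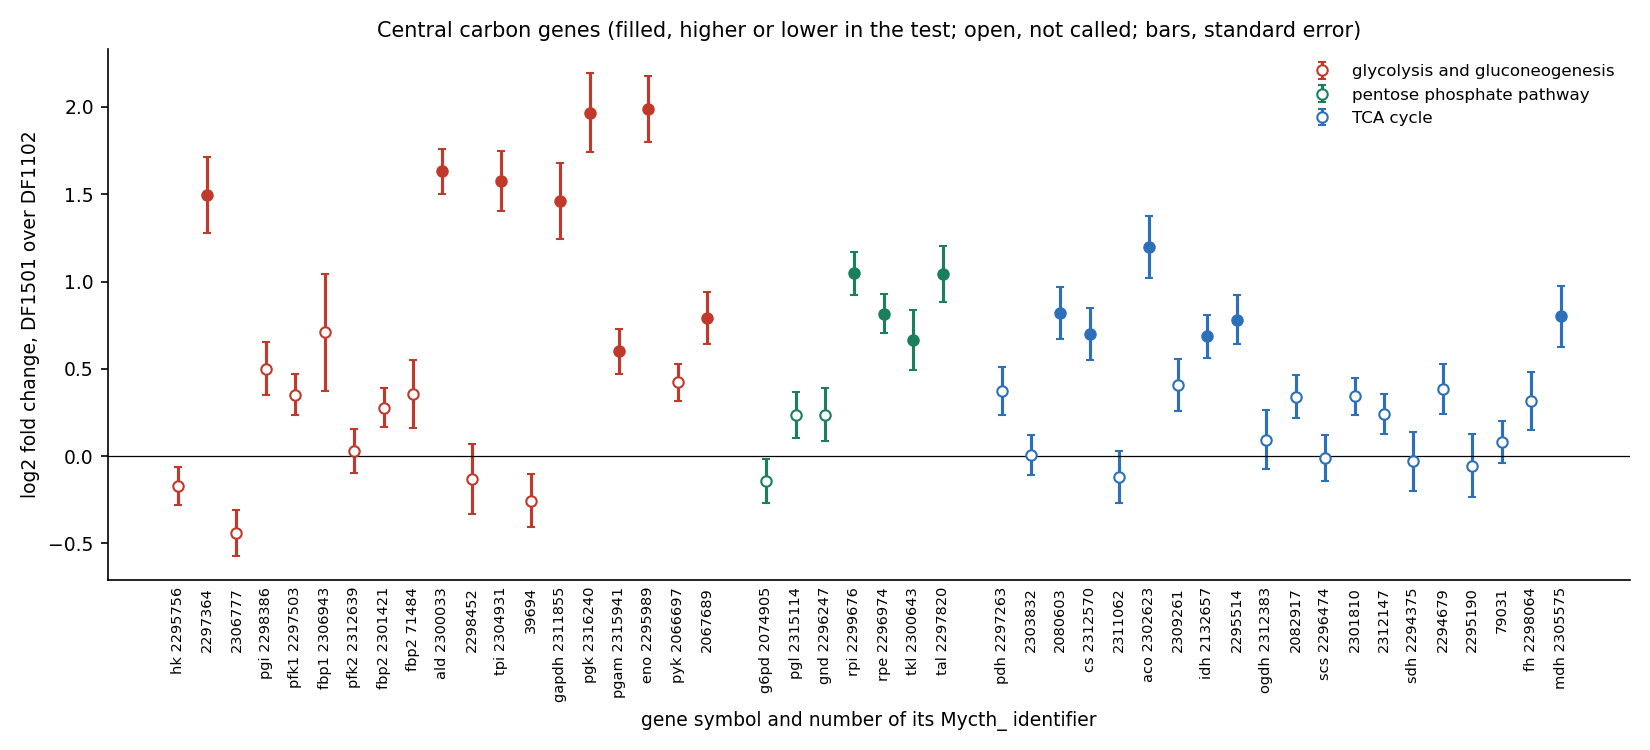
Log2 fold change of DF1501 over DF1102 with its standard error for all 46 genes listed for glycolysis and gluconeogenesis, the pentose phosphate pathway and the TCA cycle, filled where the gene was called. Filled points include enolase, phosphoglycerate kinase and the 4 non-oxidative pentose phosphate genes, while the 3 oxidative ones are open.

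Of 7 genes listed for anaplerosis and the glyoxylate cycle, 3 were higher and 1 lower, and of 11 dehydrogenase and transaminase genes, 5 were higher and 1 lower. Pyruvate decarboxylase (pdc, Mycth_112121), which makes acetaldehyde, had 525 and 650 RPKM in DF1501, 325 and 317 in DF1406, 172 and 104 in DF1102, and 868 and 639 in JG207 (log2 fold change against DF1102 2.09, standard error 0.26, adjusted p = 9.47e-04). An alcohol dehydrogenase gene (ADH1, Mycth_55576) had 238 and 178 RPKM in DF1501 and 55.6 and 60.2 in DF1102 (1.85, standard error 0.17, adjusted p = 2.83e-04). Another of that enzyme class (ADH4, Mycth_2306298) fell, with 26.3 and 17.6 RPKM in DF1501 and 64.5 and 76.0 in DF1102 (-1.68, standard error 0.20, adjusted p = 7.54e-04). The libraries of DF1501 and DF1102 did not overlap in any of these genes. Native pyruvate carboxylase (pyc, Mycth_2295692), which makes oxaloacetate, had 59.4 and 84.1 RPKM in DF1501 and 29.7 and 25.5 in DF1102 (1.37, standard error 0.16, adjusted p = 7.54e-04). The gene Mycth_2311001, listed as isocitrate lyase and matching 2-methylisocitrate lyase, had 129 and 88.5 RPKM in DF1501 and 179 and 163 in DF1102 (-0.65, adjusted p = 0.0267, and 0.0631 in the fit of the 4 libraries). Mycth_110317 and Mycth_38939, which the study lists as lactate dehydrogenases and which match malate dehydrogenases, were at 2.12 and 2.14. Mycth_110317 had 161 and 163 RPKM in DF1501 and 51.4 and 23.4 in DF1102, and Mycth_38939 had 15.0 and 38.3 RPKM in DF1501 and 7.36 and 4.57 in DF1102.

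Storage genes moved in both directions. Of 15 genes listed for trehalose, glycogen and glycerol, 6 were higher and 2 lower. Glycogen phosphorylase (gph, Mycth_2309843), which releases glucose 1-phosphate, had 39.2 and 65.9 RPKM in DF1501, 30.3 and 20.9 in DF1406, 12.1 and 8.45 in DF1102, and 64.9 and 50.2 in JG207 (log2 fold change against DF1102 2.35, standard error 0.28, adjusted p = 7.97e-04). Phosphoglucomutase (pgm, Mycth_2296536) was at 0.99 and glycogen synthase (gys, Mycth_2301334) at 0.67. Glycerol 3-phosphate phosphatase (gpp, Mycth_2296323) and glycerol kinase (gk, Mycth_53508), which make and use glycerol, were the lower pair, at -0.82 and -0.74, and gpp lost its call without DF1102 replicate 2 (-0.66, adjusted p = 0.0617). Without DF1501 replicate 1, and also without DF1102 replicate 1, 3 members were higher.

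Among genes of amino acid and nucleotide synthesis, more were higher than lower in DF1501. Of 39 genes the study lists for amino acid synthesis, 21 were higher (53.8%) and 0 lower, with a median log2 fold change of 0.60. A broader list, drawn by words in the descriptions, had 43 of 115 higher (37.4%) and 9 lower, with a median of 0.32. Asparagine synthetase (asn1, Mycth_2302711) had 47.3 and 78.6 RPKM in DF1501 and 17.9 and 22.7 in DF1102 (1.61, standard error 0.22, adjusted p = 0.00134). Acetolactate synthase (ilv2, Mycth_2299597), which opens the branched-chain pathways, had 54.8 and 88.4 RPKM in DF1501 and 23.3 and 24.5 in DF1102 (1.57, standard error 0.20, adjusted p = 0.00103). Homocitrate synthase (lys20, Mycth_2307131), of lysine synthesis from α-ketoglutarate, had 201 and 248 RPKM in DF1501 and 71.4 and 84.3 in DF1102 (1.52, standard error 0.19, adjusted p = 9.47e-04). Beta-isopropylmalate dehydrogenase (leu2, Mycth_2304102), of leucine synthesis, was at 1.48. The count of 21 became 14 without DF1102 replicate 1.

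Among the 9 lower genes of the broader list was Mycth_2309658, which matches alpha-aminoadipate reductase of lysine synthesis in yeast. It had 5.67 and 3.45 RPKM in DF1501, 15.2 and 13.8 in DF1406, 23.1 and 28.2 in DF1102, and 2.22 and 2.36 in JG207 (log2 fold change against DF1102 -2.49, standard error 0.23, adjusted p = 2.83e-04). It lies beside other genes that fell, given below.

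Of 22 genes whose descriptions name purine or pyrimidine synthesis, 14 were higher (63.6%) and 0 lower, and their median log2 fold change was 0.69 in replicate 1 and 0.68 in replicate 2 over the DF1102 mean. Adenylosuccinate lyase of purine synthesis (match of Mycth_2304164) had 90.9 and 105 RPKM in DF1501 and 29.8 and 30.8 in DF1102 (1.69, standard error 0.14, adjusted p = 1.85e-04). Mycth_2141429, a match of the purine enzyme with aminoimidazole ribonucleotide synthetase activity, was at 1.63, and Mycth_2299023, a match of the enzyme that starts pyrimidine synthesis, at 1.27. Of 40 subunits of the replication machinery, 17 were higher and 0 lower, and 12 were higher without DF1102 replicate 1. The wider list for DNA replication, drawn by words, had 26 of 70 higher (37.1%) and 0 lower. Its median log2 fold change was 0.37, against 0.44 for the subunits. The small subunit of ribonucleotide reductase (match of Mycth_68292), which makes deoxyribonucleotides, had 36.0 and 58.1 RPKM in DF1501 and 12.7 and 16.3 in DF1102 (1.68, standard error 0.21, adjusted p = 0.00103).

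Cytosolic ribosomal protein genes, the components of the cytoplasmic ribosome, were higher as a group and by an amount that differed between the DF1501 libraries. Of 70 genes, 57 were higher (81.4%) and 0 lower. Their RPKM summed to 39929 and 59974 in DF1501, 46183 and 43256 in DF1406, 29106 and 30034 in DF1102, and 61687 and 67186 in JG207. The sum in replicate 1 was near those of DF1406 and that in replicate 2 near those of JG207. Over the DF1102 mean, the median log2 ratio was 0.52 in replicate 1 and 1.01 in replicate 2, and 69 of the 70 genes were higher in replicate 2. The count of called genes depended on single libraries, at 25 without DF1501 replicate 2, and 12 and 29 without DF1102 replicate 1 and 2. A small subunit protein (match of Mycth_2297948) had 494 and 1011 RPKM in DF1501 and 245 and 285 in DF1102 (log2 fold change 1.48, standard error 0.27, adjusted p = 0.00395). A large subunit protein (match of Mycth_2300549) had 207 and 397 RPKM in DF1501 and 105 and 108 in DF1102 (1.48, standard error 0.23, adjusted p = 0.00201).

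The groups next to the ribosome did not all move with it. Of 65 mitochondrial ribosomal protein genes, 4 were higher and 0 lower, a share of 6.15% that lies below the share of all tested genes. Ribosome biogenesis, drawn by words anywhere in the description, had 14 of 132 higher and 6 lower, with a median log2 fold change of 0.03. It shares 5 members with the cytosolic ribosomal proteins, 4 of them among its higher genes. Aminoacyl-tRNA synthetases, which charge tRNAs, had 14 of 35 higher and 0 lower (7 higher without DF1501 replicate 2). Translation factors had 9 of 40 higher and 1 lower. Of 35 proteasome subunits, which degrade proteins, 0 were higher and 0 lower by the same test, and their median log2 fold change was -0.22. The wider proteasome list, drawn by words, had 0 of 72 higher and 1 lower.

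Subunits of the respiratory chain and ATP synthase were higher in DF1501, 15 of 23 (65.2%) against 0 lower. The wider words list, from which these subunits were narrowed after the descriptions had been read, had 21 of 55 higher (38.2%) and 0 lower, with a median log2 fold change of 0.42 against 0.69 for the subunits. ATP synthase subunit c (match of Mycth_112204), part of the proton-carrying ring, had 1028 and 1269 RPKM in DF1501, 731 and 671 in DF1406, 207 and 240 in DF1102, and 1854 and 2236 in JG207 (log2 fold change against DF1102 2.35, standard error 0.18, adjusted p = 1.19e-04). Subunit Va of cytochrome c oxidase (match of Mycth_2312390), the terminal oxidase, had 1116 and 1389 RPKM in DF1501 and 564 and 544 in DF1102 (1.17, standard error 0.19, adjusted p = 0.00287). The median log2 ratio over DF1102 was 0.66 in replicate 1 and 0.72 in replicate 2. Of 53 genes listed for oxidative stress and redox, 11 were higher and 4 lower, with a median log2 fold change of 0.12. A thiol-specific peroxiredoxin, which reduces peroxides (match of Mycth_2297550), had 1504 and 2253 RPKM in DF1501 and 358 and 367 in DF1102 (2.36, standard error 0.20, adjusted p = 1.85e-04), and a mitochondrial one (match of Mycth_2095451) had 1100 and 1310 in DF1501 and 323 and 372 in DF1102 (1.79, standard error 0.17, adjusted p = 2.83e-04). Another match of a thiol-specific peroxiredoxin in that list, Mycth_2066239, was at 0.04 and not called.

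**Figure D4:**
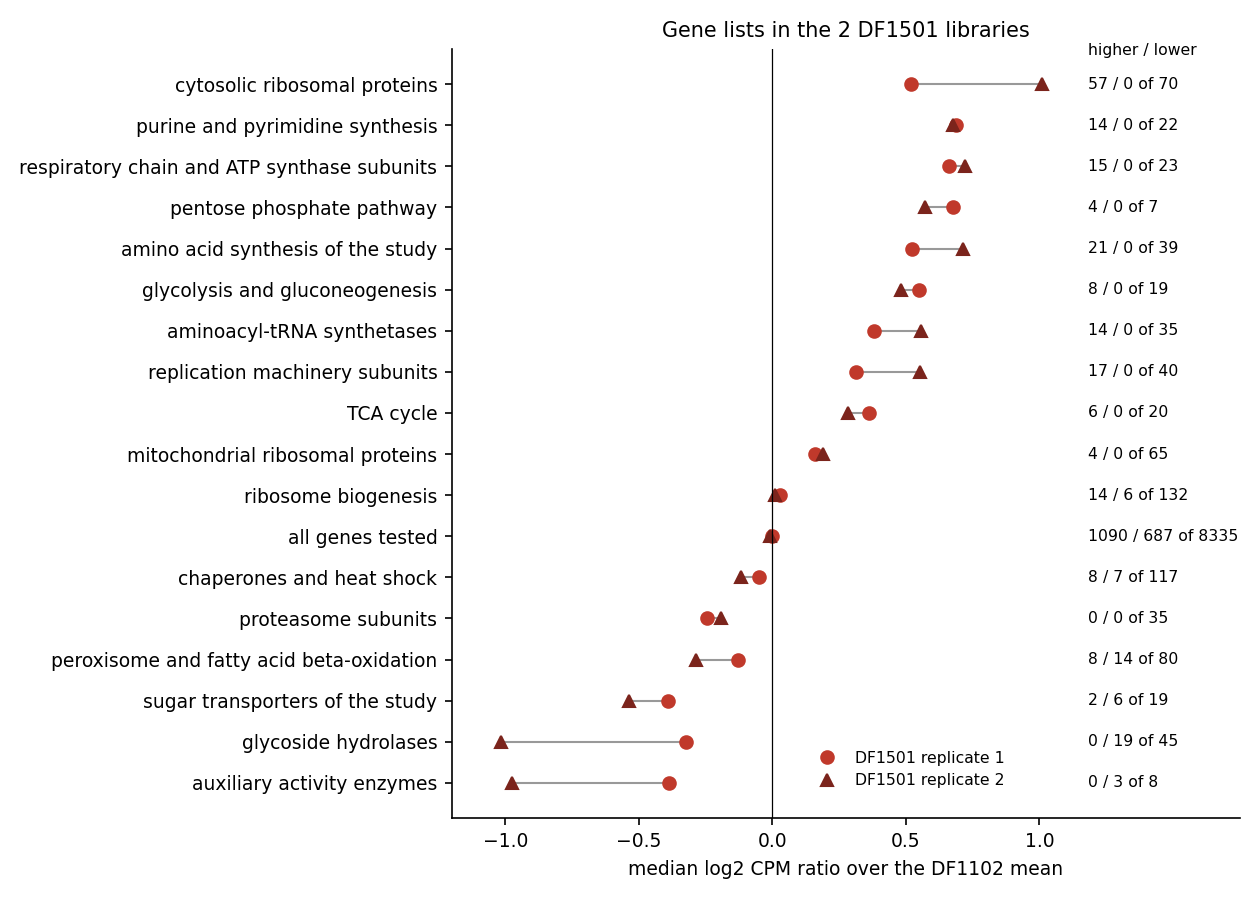
Median log2 CPM ratio over the DF1102 mean in DF1501 replicate 1 (circles) and replicate 2 (triangles) for 17 gene lists and for all tested genes, with the number of members called higher and lower at the right. The libraries lie furthest apart for glycoside hydrolases, auxiliary activity enzymes and cytosolic ribosomal proteins, and close together for nucleotide synthesis and the respiratory chain.

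Genes of plant cell wall breakdown were lower or not called in DF1501. The study chose its lists of these genes on these samples, so they are not independent evidence of a direction. Of 45 glycoside hydrolase (GH) genes, 0 were higher and 19 lower (42.2%), with a median log2 fold change of -0.62. The count was 33 without DF1501 replicate 1, and 13 and 12 without DF1102 replicate 1 and 2, and 1 and 2 genes were higher without DF1501 replicate 1 and 2. RPKM over the list summed to 15607 and 6756 in DF1501, 24613 and 22616 in DF1406, 21729 and 20828 in DF1102, and 2816 and 2621 in JG207. Both DF1501 sums lay below those of the other deletion strains, and the sum of replicate 1 was more than 2-fold that of replicate 2. These sums weigh abundant genes most, among them the xylanase Xyn1, which was not called and is given below.

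Lower GH genes with close DF1501 libraries included the endoglucanase EG7a (GH7, Mycth_111372), which cuts cellulose chains, with 5.93 and 4.67 RPKM in DF1501 and 22.2 and 18.2 in DF1102 (log2 fold change -1.92, standard error 0.18, adjusted p = 2.83e-04). A GH3 gene (Mycth_80304) had 42.8 and 50.3 RPKM in DF1501 and 139 and 145 in DF1102 (-1.62, standard error 0.18, adjusted p = 6.33e-04), and the GH11 gene Mycth_99786 had 4.23 and 3.33 in DF1501 and 10.3 and 13.2 in DF1102 (-1.64, standard error 0.31, adjusted p = 0.00463). The GH30 gene Mycth_38558 was at -1.58, with DF1501 libraries further apart, at 11.8 and 5.99 RPKM in DF1501 and 27.0 and 26.5 in DF1102. These were not the most abundant members, and the abundant xylanases had libraries that lay far apart. The GH11 xylanase Xyn1 (Mycth_89603) had 6520 and 1093 RPKM in DF1501, 11266 and 10760 in DF1406, 9970 and 8914 in DF1102, and 318 and 266 in JG207. Its log2 fold change of -1.28 against DF1102 had a standard error of 0.63 and did not pass the test (adjusted p = 0.146), although both DF1501 libraries were below both of DF1102.

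The GH11 xylanase Xyl7 (Mycth_100068) had 595 and 54.0 RPKM in DF1501 and 918 and 733 in DF1102, and was not called either (-1.31, standard error 0.78, adjusted p = 0.223). For the GH11 gene Mycth_49824 and the GH62 gene Mycth_98003, an arabinofuranosidase family, replicate 1 was above DF1102 and replicate 2 below it. Mycth_49824 had 266 and 44.5 RPKM in DF1501 and 177 and 164 in DF1102, and Mycth_98003 had 43.0 and 8.15 in DF1501 and 17.5 and 14.6 in DF1102. Neither was called. Without DF1501 replicate 1, Mycth_98003 was lower at -1.03, and without replicate 2, Mycth_49824 was higher at 0.69, so that the direction of these genes depended on the library.

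**Figure D5:**
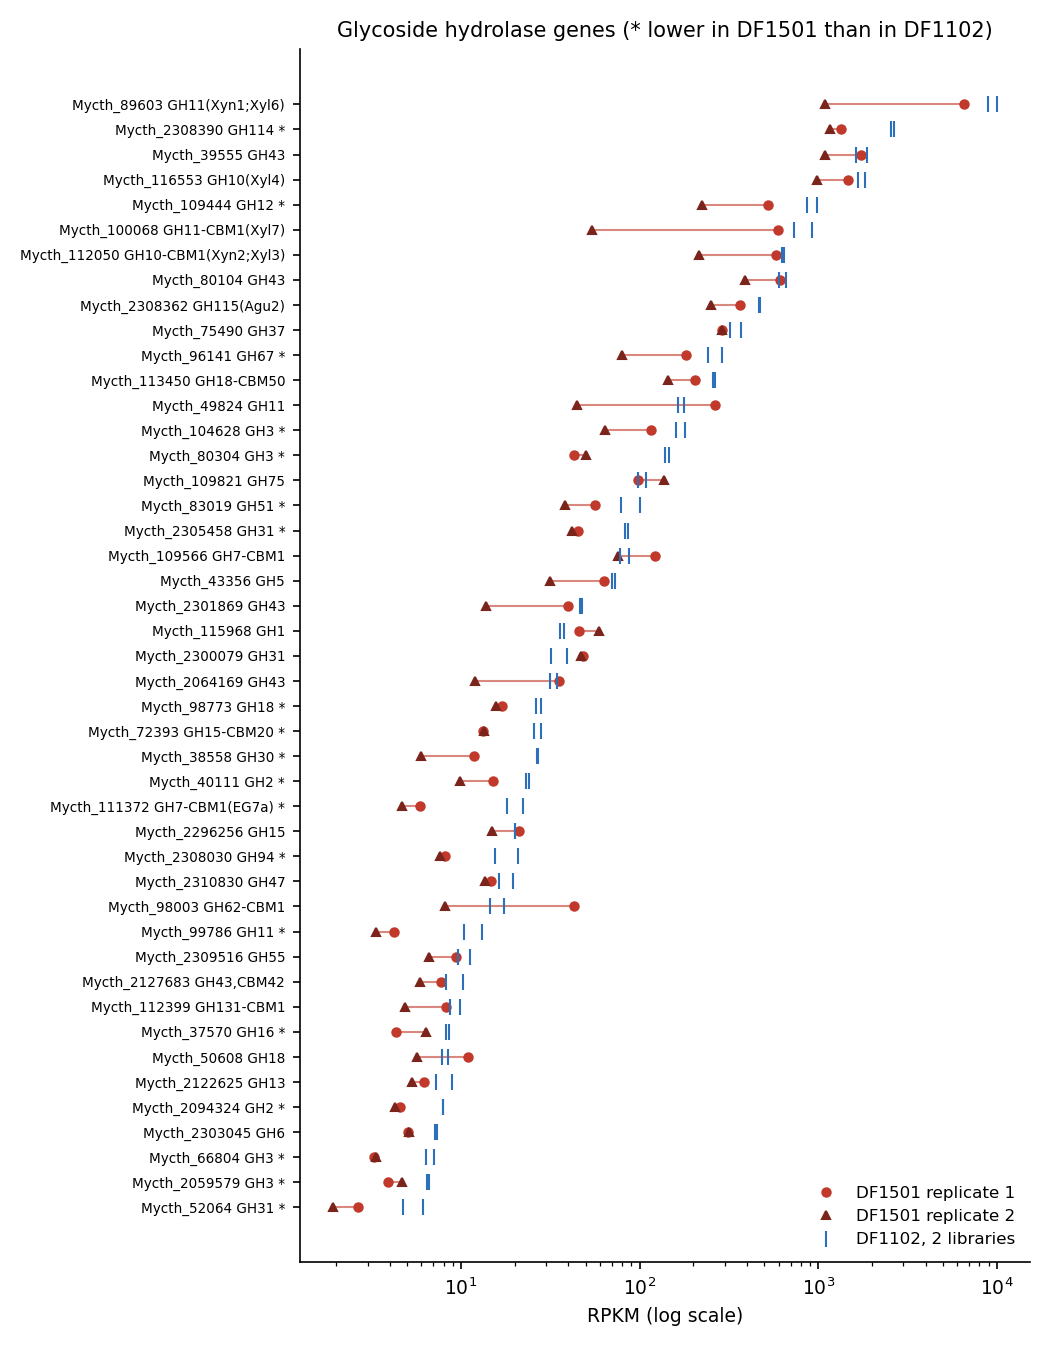
RPKM on a log scale of the 45 glycoside hydrolase genes in DF1501 replicate 1 (circles), DF1501 replicate 2 (triangles) and the 2 DF1102 libraries (ticks), sorted by level in DF1102, with an asterisk on the 19 genes called lower. Several abundant xylanase genes carry no asterisk, and their DF1501 libraries lie far apart.

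Of 8 auxiliary activity enzymes, which include the AA9 oxidases that cleave polysaccharides, 0 were higher and 3 lower, and 1 was lower without either DF1102 library. The AA9 gene Mycth_46583 had 24.4 and 15.7 RPKM in DF1501 and 41.4 and 41.6 in DF1102 (log2 fold change -1.04, standard error 0.24, adjusted p = 0.0101, and 0.0550 and 0.0595 without DF1102 replicate 1 and 2). The gene Mycth_81925 with AA8 and AA3 domains was at -0.84. Of the 4 regulators of cellulase and xylanase genes, clr-1 (Mycth_2298863) fell, with 49.3 and 54.6 RPKM in DF1501 and 84.4 and 87.1 in DF1102 (-0.73, standard error 0.14, adjusted p = 0.00510). The xylanase regulator xyr-1 (Mycth_2310145), with 22.2 and 21.7 RPKM in DF1501 and 25.9 and 24.2 in DF1102, was not called (-0.19, adjusted p = 0.245). Its DF1501 libraries differed by less than those of the abundant xylanase genes.

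Of 19 sugar transporters listed by the study, 2 were higher and 6 lower, and 3 and 1 were lower without DF1102 replicate 1 and 2. Mycth_108044, which matches a glucose sensor of the plasma membrane, had 3.21 and 2.46 RPKM in DF1501, 13.8 and 6.87 in DF1406, 11.7 and 11.5 in DF1102, and 0.177 and 0.459 in JG207 (log2 fold change against DF1102 -2.03, standard error 0.33, adjusted p = 0.00252). Mycth_84164, whose match resembles hexose transporters, had 60.1 and 37.1 RPKM in DF1501 and 91.2 and 102 in DF1102 (-0.98, standard error 0.24, adjusted p = 0.0130, and 0.0512 and 0.0844 without DF1102 replicate 1 and 2). The most abundant member, Mycth_2308157, had 2560 and 2158 RPKM in DF1501 and 3327 and 3411 in DF1102 and was not called (-0.51, adjusted p = 0.111). The study chose its list of 19 transporters on these samples too, so it is not independent evidence of a direction. A list of sugar transporters drawn by words in the descriptions had 5 of 30 higher (16.7%) and 8 lower (26.7%). Its median log2 fold change was -0.41, against -0.51 for the study's list.

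Further lists were drawn by words in the descriptions, and over all tested genes 13.1% were higher and 8.24% lower. Peroxisome and fatty acid beta-oxidation had 8 of 80 higher and 14 lower, and its multifunctional beta-oxidation gene (match of Mycth_2309487) had 183 and 45.8 RPKM in DF1501 and 403 and 405 in DF1102. This gene was called at -1.80 (standard error 0.57, adjusted p = 0.0366) in edgeR and not in DESeq2 (adjusted p = 0.0871) or without DF1102 replicate 1 (0.123) or 2 (0.127). Chaperones and heat shock had 8 of 117 higher and 7 lower, secretion through the endoplasmic reticulum and Golgi 1 of 64 higher and 1 lower, and cell wall 10 of 120 higher and 10 lower. Sterol synthesis had 9 of 49 higher and 4 lower, with lanosterol demethylase (match of Mycth_110187), an enzyme of ergosterol synthesis, at 145 and 280 RPKM in DF1501 and 77.0 and 68.8 in DF1102 (1.53, standard error 0.26, adjusted p = 0.00313). Iron and metal transport had 8 of 31 higher and 1 lower.

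Among all genes with at least 10 CPM in either strain and libraries that did not overlap, the highest fold belonged to Mycth_61507, whose match carries glutathione conjugates into the vacuole, with 2.61 and 14.2 RPKM in DF1501 and 0.744 and 0.712 in DF1102. Its DF1501 libraries lay more than 5-fold apart. Mycth_2314555, with no description, had 84.6 and 62.0 RPKM in DF1501, 142 and 78.7 in DF1406, 5.57 and 7.86 in DF1102, and 38.2 and 44.6 in JG207. It thus lay above JG207 as well as above DF1102. The delta-9 fatty acid desaturase gene (match of Mycth_109620), which makes monounsaturated fatty acids, had 97.6 and 142 RPKM in DF1501 and 17.3 and 16.1 in DF1102 (log2 fold change 2.83, standard error 0.18, adjusted p = 5.49e-05). Mycth_77059, which matches an NADP-dependent dehydrogenase, had 26.7 and 34.9 RPKM in DF1501 and 3.39 and 2.48 in DF1102, and Mycth_2119667, with no description, had 96.0 and 98.1 in DF1501 and 16.3 and 13.8 in DF1102.

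The 10 lowest folds lay between -4.45 and -3.11. Mycth_69746, which matches a UDP-glucose 4-epimerase of galactose use, had 0.517 and 0.751 RPKM in DF1501, 1.63 and 0.740 in DF1406, 13.6 and 14.2 in DF1102, and 0.316 and 0.475 in JG207. Mycth_2309660, with no description, had 182 and 149 RPKM in DF1501, 413 and 450 in DF1406, 1988 and 3013 in DF1102, and 199 and 348 in JG207. In both genes the DF1102 libraries stood above all 6 others. Mycth_2094591, which matches a quinone oxidoreductase, had 34.8 and 3.46 RPKM in DF1501 and 179 and 159 in DF1102, and its adjusted p was 0.0578 and 0.0516 without DF1102 replicate 1 and 2. Among the most abundant genes that fell was Mycth_2295902, whose match has no known function, with 6378 and 1818 RPKM in DF1501, 13083 and 13172 in DF1406, 18736 and 20648 in DF1102, and 240 and 181 in JG207 (-2.24, standard error 0.53, adjusted p = 0.0116, and 0.0501 and 0.0596 without DF1102 replicate 1 and 2).

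Called genes were in part neighbours. In the gene order of the RefSeq assembly ASM22609v1, 30 of the 1090 higher genes lay in 7 runs of at least 4 adjacent genes called higher, and 35 of the 687 lower genes lay in 8 such runs of lower genes. The run that holds Mycth_69746 also holds Mycth_11658, Mycth_108317 and Mycth_82772, which had log2 fold changes of -2.53, -3.38 and -3.61, and at most 9.52 RPKM in DF1501. Mycth_108317 matches a beta-ketoacyl synthase. Another run of 4 joins Mycth_2309660 with Mycth_2309658, the match of alpha-aminoadipate reductase, Mycth_2309656 and Mycth_2129548, which matches a maltose transporter and stayed at or below 0.600 RPKM in every library, at -3.92 to -2.37. These 2 runs were picked after their values were seen, and no test of clustering was made.

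Of 126 genes whose DF1501 libraries differed by at least 2-fold, 95 were higher in replicate 1 and 31 in replicate 2. Among the 95 were 12 of the 36 GH genes at 10 CPM or more, 5 of 76 genes of peroxisomes and beta-oxidation, and 0 of the cytosolic ribosomal proteins. All genes at that level numbered 6457. In 79 of the 95 genes JG207 lay below DF1102, and in 28 of the 31 JG207 lay above DF1102. In most of them replicate 2 thus differed from replicate 1 in the direction in which JG207 differed from DF1102. The same shares over all 6457 genes were not computed, so these counts have no background beside them. Of the 95, 32 were called lower and 3 higher than in DF1102, and of the 31, 12 were called higher and 0 lower. Over all tested genes, 13.1% were higher and 8.24% lower. The calls use the same DF1501 values by which these genes were picked, so this split is in part fixed by that choice. Mycth_80233, with no description, had 59.5 and 5.04 RPKM in DF1501, 30.9 and 25.5 in DF1406, 14.1 and 11.99 in DF1102, and 0.393 and 0.287 in JG207, so that the DF1501 libraries lay on either side of DF1102. In the other direction, Mycth_53288, with no description, had 9.73 and 53.0 RPKM in DF1501, 5.94 and 5.91 in DF1102, and 52.9 and 56.1 in JG207. Replicate 2 was at the JG207 level in that gene, and replicate 1 was near DF1406, at 8.48 and 10.3. The match of a chitinase (Mycth_94536), an enzyme of cell wall turnover, had 5.35 and 22.8 RPKM in DF1501 and 6.38 and 8.28 in DF1102.

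Against JG207, 699 genes were higher (8.39%) and 431 lower (5.17%) in DF1501 at the same thresholds. Against DF1406, the strain with the other version of the pathway, 163 were higher (1.96%) and 153 lower (1.84%). The counts against DF1406 rest on the spread shared by all 4 strains. With only the 4 libraries of DF1501 and DF1406 fitted, 2 genes were higher and 1 lower, and without DF1406 replicate 1 or 2, 5 or 4 were higher and 8 or 9 lower. Scaled by library size alone, 286 were higher and 161 lower, a more uneven split.

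Mycth_2310363, with no description, had 49.9 and 58.0 RPKM in DF1501, 10.5 and 9.77 in DF1406, 8.63 and 8.31 in DF1102, and 19.2 and 20.4 in JG207 (log2 fold change against DF1406 2.34, adjusted p = 1.30e-04). The DF1501 libraries were above all 6 others. Mycth_2113877, also with no description, showed this too, with 22.6 and 22.9 RPKM in DF1501 and at most 5.98 in the other strains (1.93, adjusted p = 5.07e-04). Lower than in DF1406 were Mycth_2307942 and Mycth_2307937, with no description. Mycth_2307942 had 434 and 122 RPKM in DF1501, 3071 and 2788 in DF1406, and 2499 and 2131 in DF1102 (-3.44, adjusted p = 0.0110). Mycth_2307937 had 20.5 and 10.9 RPKM in DF1501, 125 and 120 in DF1406, and 119 and 118 in DF1102 (-3.01, adjusted p = 0.00176). Of the GH genes 11 of 45 were lower than in DF1406 and 0 higher, with a median log2 fold change of -0.65. Mtxyl1 was higher (1.12, adjusted p = 0.00747) and Mtxyd1 lower (-1.04, adjusted p = 0.0234) than in DF1406, and of the 70 cytosolic ribosomal protein genes 0 were called in either direction. Pgk was the called gene of glycolysis, at 0.99 (adjusted p = 0.0401).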

How the data were processed

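RNA-seq counts of 8 libraries, 2 from each of 4 strains, were used. Reads were cleaned by the authors, aligned to the JGI genome of the species (TopHat2 2.0.12) and turned into per-gene counts of uniquely placed reads (HTSeq 0.13.5). The strand setting is not given in the sources used here, so overlapping genes on opposite strands may share counts. The deposited RPKM values imply the same gene length in every library, to within 0.1%, in 8948 of 8948 genes for which this could be computed from the authors' counts. In the deposited count table, 3 rows without a gene ID were left out, and 0 columns were unused.

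Counts of 9110 genes were tested in edgeR 4.0.16 (R 4.3.3) with TMM factors between 0.954 and 1.05, its default filter (minimum count 10), a mean per strain and all 8 libraries, which gave 4 residual and 5.16 prior degrees of freedom. The standard error is the absolute log2 fold change over the square root of the F statistic. Single-library ratios used log2 CPM with a prior count of 2. Counts for DF1501 against DF1102 were also simulated over 8335 genes and scored by an edgeR adjusted p of at most 0.05, without the fold minimum. In the right direction, 32.8% of 67 genes planted at a fold of 1.5 passed, 79% of 62 at 2 and 97.1% of 68 at 3. Of 8084 unchanged genes, 8 passed. Each simulated gene had the same spread in every strain. The wider spread of the real DF1501 libraries was thus left out, and these rates may not hold for them.

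Members and gene lists were chosen with earlier results of these data known. Lists came from the study's tables or from words anywhere in the descriptions, which 4237 genes have, and the lists of subunits were narrowed after the descriptions had been read. Genes named were those of d-xylose use, those linked to the study's constructs and actin, the largest changes among called members of each list (4 for study lists, 3 for words lists), the 10 highest and 10 lowest folds, the 8 largest library ratios each way and the 5 largest each way against DF1406, with a minimum of 10 CPM and, for folds, libraries that did not overlap. Not every gene named by this rule is printed. Others were added to show the rest of a list or run, after their values were seen. RefSeq locus tags matched 9087 of 9110 genes and served for gene order only.

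Alternatives were DESeq2 1.42.0, RLE factors, library size alone, no filter, a minimum of 10 counts per library, a fit of the 4 compared libraries alone, a replicate block, limma 3.58.1 (voom with weights per strain, or log2(RPKM + 1) with and without a filter at 1 RPKM in at least 2 libraries, or log2(RPKM + 0.1)), no fold minimum, a fold of 2, and each library left out in turn. A strain left with 1 library was then assumed to vary like the others.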

Additional observations from a re-analysis of the deposited data

Results flagged for a closer look

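Mycth_2312115, which matches an outer mitochondrial carnitine acetyltransferase, an enzyme that moves acetyl groups, was the single named gene with opposite calls in the 2 pathway strains and a called difference between them. It had 167 and 99.3 RPKM in DF1501, 42.5 and 46.7 in DF1406, 82.6 and 75.4 in DF1102, and 24.8 and 26.2 in JG207. Against DF1102 its log2 fold change was 0.77 in DF1501 and -0.76 in DF1406, and DF1501 against DF1406 gave 1.53 (edgeR adjusted p = 0.0128). The DF1501 libraries were unequal, and without DF1501 replicate 1 the log2 fold change against DF1102 was 0.28 and the call was lost. The call against DF1102 was also lost when only the 4 libraries compared were fitted (edgeR adjusted p = 0.0686). It was lost as well without DF1102 replicate 1 or 2, at log2 fold changes of 0.81 and 0.72. With 2 libraries per strain, no library could be set against its group.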

How the results depend on the processing

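Against DF1102, the counts of 1090 higher and 687 lower genes stayed within 1.5 times under every alternative except a fold of at least 2 (447 and 234), no fold minimum (1358 lower) and libraries left out, where they ranged over 697 to 1191 and 486 to 935. Against DF1406, 163 higher and 153 lower became 267 and 248 in DESeq2, 2 and 1 with only the 4 libraries, 59 and 68 at a fold of at least 2, 286 higher with library size alone and 88 lower in limma on log2(RPKM + 0.1), and ranged over 4 to 362 and 8 to 430 with libraries left out. With the replicate block, 1063 and 689 were called against DF1102 and 143 and 138 against DF1406. Same-numbered deviations correlated at 0.0451 for DF1501 with DF1102 and -0.223 with DF1406. Because each strain has only 2 libraries, these values cannot decide whether the numbers pair the samples. Crossing the numbers of DF1406 in the block, chosen after seeing the data, called 263 and 229. The causes were not tested.

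Of 133 named genes called against DF1102, 98 kept the call in every alternative but the fold of 2, and 35 lost it in at least 1, all of them without some library. It was lost by 29 without DF1102 replicate 2, 25 without DF1102 replicate 1 and 15 without DF1501 replicate 2. The direction turned only in uncalled genes: Mycth_49700 at 0.27 (-0.36 in limma voom, -0.24 in limma on log2(RPKM + 1) with or without a filter, -0.32 on log2(RPKM + 0.1)), and with libraries left out 12 genes. Those ranged over -0.064 to 1.05 (Mycth_2315623), -0.17 to 0.61 (Mycth_109566), -1.42 to 2.24 (Mycth_80233), -1.82 to 1.10 (Mycth_49700), -1.99 to 0.69 (Mycth_49824), -1.03 to 1.47 (Mycth_98003), -0.18 to 2.13 (Mycth_2299830), -1.39 to 0.62 (Mycth_2303328), -0.41 to 1.59 (Mycth_94536), -0.49 to 1.20 (Mycth_110061), -1.18 to 0.46 (Mycth_115983) and -1.12 to 0.58 (Mycth_2313112).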
